A study of Rattus norvegicus with 12 samples.

Results

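The data describe 9 genes that mark states of the fibroblast, the cell that makes the connective tissue of the heart. Pi16, Tcf21, Dpt and Pdgfra are read as genes of the resting fibroblast, Meox1, Cthrc1, Thy1 and Fibin as genes linked to its activation, and Pdgfrb was placed in neither group. All probe sets that the array annotation assigned to these symbols and to no other gene were taken, which gave 15 of 31042 tested probe sets and 9 of 14217 named genes. Some of the genes were picked because they differed after the shunt, so their shunt values are a description here, given without a p-value.

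RNA was measured on 1-colour Affymetrix arrays, on which short probes are grouped into probe sets, in the atrial appendages of male Sprague-Dawley rats. A shunt between the aorta and the vena cava, which overloads the heart with volume, or a sham operation was followed by 28 days. The 12 arrays formed 4 groups of 3: sham and shunt pools of the right atrium and sham and shunt pools of the left atrium, all of 1 strain and sex with no transgene or drug named, and with no age stated. Each array held RNA pooled from 2 tissues, and the labels do not say whether right and left pools came from the same animals. The p-values therefore measure the spread between these pools only. The deposited values are log2 expression levels per probe set on 1 shared scale, with array medians between 5.44 and 5.47, and an array value has no true 0. The number of arrays limits the precision, levels of different probe sets are not compared with each other, and in bulk tissue fewer cells of a type and less RNA per cell cannot be told apart.

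Fibroblasts of the healthy heart maintain the collagen scaffold, and under load a share of them takes on an activated, matrix-producing state. Tcf21 is a transcription factor of the embryonic epicardium that persists in resident cardiac fibroblasts, and Pdgfra, the alpha receptor for platelet-derived growth factor (PDGF), is widely used to identify them. Pi16 and Dpt are read in a fibroblast population of vessel sheaths and fascia found in many organs, while Meox1, a homeobox transcription factor, and Cthrc1, a secreted glycoprotein, are associated with activation in injured hearts.

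Listed markers of fibroblasts were read as a check on the tissue. Decorin (Dcn), lumican (Lum), gelsolin (Gsn) and the collagen chain Col1a1 lay between 10.49 and 12.88 on every array, well above the median of all values, 5.46. The rest of that list, Pdgfra, Tcf21 and Dpt, is among the 9 genes and given below, with Tcf21 at 7.33 to 8.07. The tissue entry of the samples names ventricles besides atria, so markers of ventricular muscle were read as well. The mean log2 level of 5 such markers was 7.99 to 8.18 in right sham pools, 8.56, 9.69 and 9.56 in right shunt pools 1, 2 and 3, 5.94 to 6.28 in left sham pools and 6.59 to 7.02 in left shunt pools. Left shunt pool 3 stood apart: its mean correlation with the other arrays of its group was 0.989, theirs were 0.992 and 0.993, and the brown fat gene Ucp1 lay at 7.56 on it against 4.22 and 4.66. The shunt values of the 9 genes are also given without that pool and with right shunt pool 1 alone, where these change them.

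The sequences upstream of the genes were read from the RefSeq promoter table of build GRCr8, which matched 4 of the 9 genes (Tcf21, Dpt, Pdgfra and Pi16). The 250 bases before the start site are printed for Dpt and Tcf21, resting genes whose brightest probe sets had no chamber difference that passed the test and whose windows differ most in the motifs they hold. In the Dpt window, chr13:79656091-79656340 on the plus strand, capitals mark each E-box (CANNTG) and the TATA box (TATAAA). In the Tcf21 window, chr1:24520249-24520498 on the plus strand, capitals mark the Smad element (CAGAC or its complement GTCTG) and the GATA element (AGATAA).
Dpt: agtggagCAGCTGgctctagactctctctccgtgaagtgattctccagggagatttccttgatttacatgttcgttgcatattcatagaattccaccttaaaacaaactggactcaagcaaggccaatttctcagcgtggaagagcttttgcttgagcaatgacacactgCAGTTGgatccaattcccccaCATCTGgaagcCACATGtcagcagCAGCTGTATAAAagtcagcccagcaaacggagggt
Tcf21: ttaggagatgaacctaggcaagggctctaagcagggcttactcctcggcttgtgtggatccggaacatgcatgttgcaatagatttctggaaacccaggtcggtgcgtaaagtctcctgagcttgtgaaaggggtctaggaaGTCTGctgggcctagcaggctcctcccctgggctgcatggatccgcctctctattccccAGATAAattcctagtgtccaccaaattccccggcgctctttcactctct
The Dpt window held 5 E-boxes, 4 of them in the stretch nearest the start, and a TATA box that begins at position -29 counted from the start site. The Tcf21 window held neither an E-box nor a TATA box, and had 1 GATA element and 1 Smad element. Both strands were searched, and E-boxes may overlap other motifs. Over all 33465 windows of 250 bases in the table, 65.5% held an E-box, 42.9% a Smad element, 12.9% a TATA box and 10.3% a GATA element, so all 4 motifs are common. The Pi16 window held 1 E-box and 1 Smad element, and the Pdgfra window 1 E-box, 2 Smad elements and 1 AP-1 element (TGANTCA, in 6.34% of windows). A TEAD element (GGAATG, 12.1% of windows) and a homeobox element of the bicoid type (TAATCC, 6.34%) were in none of the 4. These matches describe letters and do not show binding.

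Pi16, named as a peptidase inhibitor, had the widest chamber difference of the 9 genes. Its brighter probe set, 1372640_at, read 4.72, 4.72 and 4.95 in right sham pools 1, 2 and 3, 6.02, 5.70 and 5.70 in right shunt pools, 7.99, 7.61 and 7.79 in left sham pools, and 8.77, 8.73 and 7.77 in left shunt pools. Every left pool lay above every right pool, all right shunt pools lay above the right sham pools, and on the left only shunt pools 1 and 2 lay above the sham pools. The other probe set, 1380484_at, read 4.44 to 5.13 in right sham, 4.65 to 4.71 in right shunt, 6.38 to 6.71 in left sham and 7.41, 7.35 and 6.27 in left shunt pools. It had the same left excess, but its right sham and right shunt pools overlapped. The right sham pools of both probe sets lay below the median of all values, 5.46, so fold values of Pi16 rest on a dim right-atrial level.

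Dpt, which encodes the matrix protein dermatopontin that binds decorin, gave an answer that depended on the probe set. The brighter one, 1371732_at, lay between 11.66 and 11.90 on all 12 arrays. Groups next to each other in the order of levels overlapped, while left shunt (11.76 to 11.90) and right shunt (11.80 to 11.83) lay above left sham (11.66 to 11.74). The other, 1373947_at, read 10.01, 9.85 and 10.08 in right sham pools, 10.24, 10.36 and 10.25 in right shunt pools, 11.05, 11.02 and 10.89 in left sham pools and 11.12, 11.33 and 10.93 in left shunt pools. On that probe set every left pool lay above every right pool and right shunt above right sham, while the left groups overlapped.

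Tcf21 read 7.89, 8.06 and 7.98 in right sham, 8.07, 7.98 and 7.95 in right shunt, 7.82, 7.96 and 7.93 in left sham, and 7.99, 7.93 and 7.33 in left shunt pools. All neighbouring groups overlapped, and the lowest value was that of left shunt pool 3. Pdgfra read 10.34, 10.39 and 10.36 in right sham, 10.26, 10.46 and 10.36 in right shunt, 10.18, 10.18 and 10.21 in left sham, and 10.02, 10.21 and 10.02 in left shunt pools. For Pdgfra the highest left pool lay just below the lowest right pool.

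Among the activation-linked genes, Meox1 covered the widest range. It read 5.37, 5.43 and 5.58 in right sham pools, 6.83, 6.79 and 6.44 in right shunt pools, 4.55, 4.51 and 4.76 in left sham pools, and 6.44, 6.26 and 5.38 in left shunt pools. Shunt pools lay above the sham pools of the same atrium in every case, and left sham was the lowest group. Right and left sham levels lay at or below the median of all values, 5.46, on most arrays, so the sham signal was dim.

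Cthrc1 ran in the opposite chamber order. It read 5.94, 5.54 and 5.64 in right sham, 6.20, 5.88 and 5.94 in right shunt, 6.37, 6.30 and 6.21 in left sham, and 6.78, 6.73 and 6.55 in left shunt pools. All left pools lay above all right pools, the left groups did not overlap, and the right groups did.

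Thy1, a surface glycoprotein anchored by a lipid and also carried by neurons, read 5.54, 5.59 and 5.79 in right sham, 6.36, 6.32 and 6.13 in right shunt, 5.62, 5.27 and 5.59 in left sham, and 6.18, 6.22 and 5.88 in left shunt pools on 1369652_at. Shunt pools lay above all sham pools, and the atria overlapped within each operation. The dimmer probe set, 1369651_at, ran from 4.05 to 4.61 in right sham, 4.47 to 5.21 in right shunt, 4.52 to 5.01 in left sham and 5.26 to 5.29 in left shunt pools, and shunt and sham were apart only in the left atrium.

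Fibin, a secreted protein named for fin bud initiation, had 2 probe sets that gave the chambers in opposite order. On 1373727_at it read 7.28, 7.26 and 7.23 in right sham, 8.33, 8.30 and 8.11 in right shunt, 7.97, 7.38 and 7.79 in left sham, and 8.97, 8.71 and 7.91 in left shunt pools. On 1393696_at it read 6.76, 6.78 and 6.71 in right sham, 8.11, 8.07 and 7.86 in right shunt, 6.41, 6.46 and 6.48 in left sham, and 8.11, 7.80 and 7.0 in left shunt pools. Both probe sets put the shunt pools above the sham pools of the right atrium. On the left the same held for 1393696_at, while on 1373727_at left shunt pool 3 lay below left sham pool 1.

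Pdgfrb, the beta receptor for PDGF, is carried by pericytes and smooth muscle as well as fibroblasts. Its brightest probe set, 1370642_s_at, read 7.23, 7.24 and 7.48 in right sham, 8.22, 8.12 and 8.07 in right shunt, 8.12, 8.0 and 8.05 in left sham, and 8.69, 8.76 and 8.15 in left shunt pools. Right sham pools lay below all others, and right shunt and left sham overlapped. The other probe sets were dimmer and flatter: 1379211_at ran from 5.68 to 6.75 and 1391394_s_at from 5.77 to 6.36 over all 12 arrays.

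**Figure D1:**
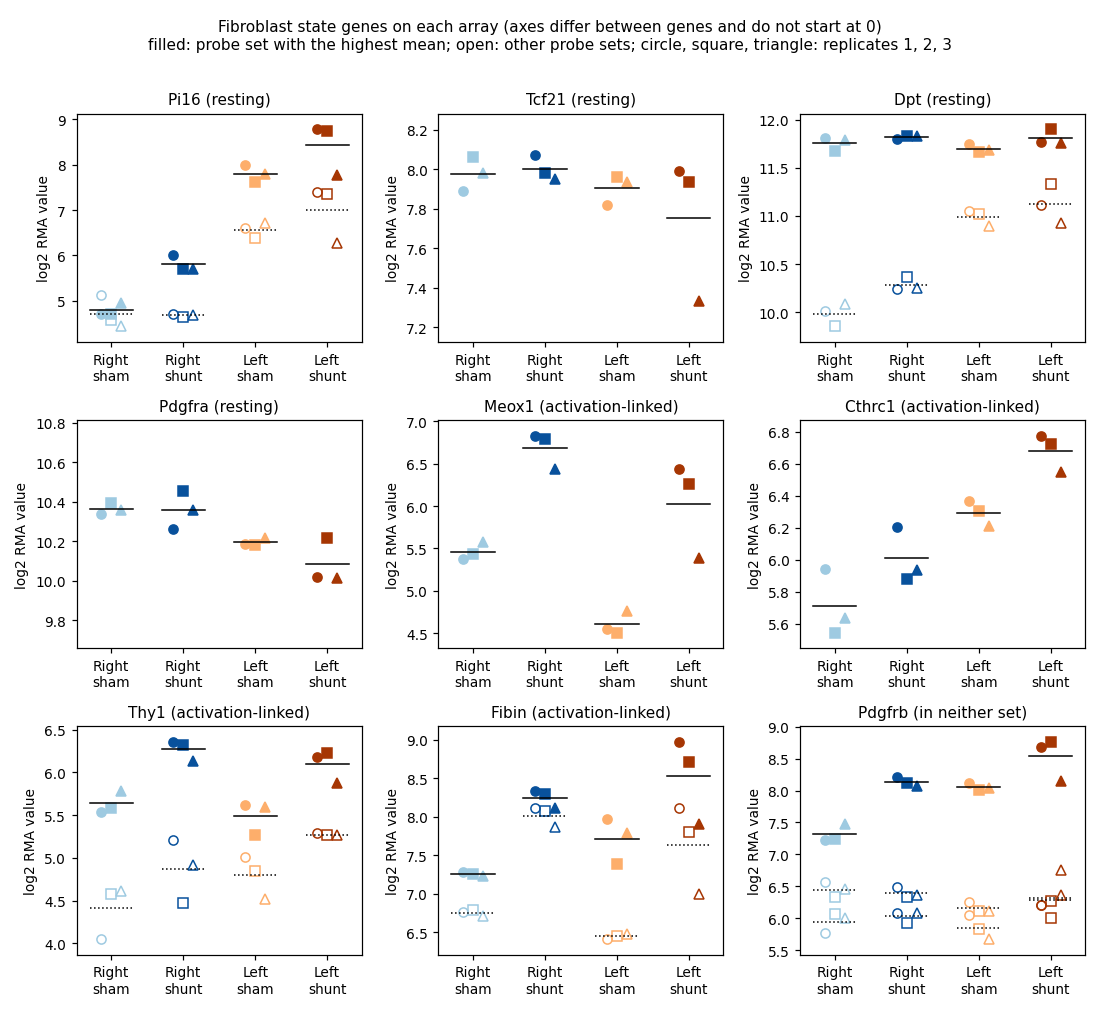
Log2 level (vertical axis, not starting at 0 and different for each gene) of the 15 probe sets on every array, with 1 panel per gene and the 4 groups along the horizontal axis. Filled points are the probe set with the highest mean and open points the others, shapes mark replicates 1, 2 and 3, and lines are group means. Pi16 separates left from right by several log2 units. Meox1, the filled points of Thy1 and the right-atrial Fibin values separate shunt from sham within an atrium. The filled points of Tcf21 and Dpt lie level apart from left shunt pool 3 of Tcf21 at 7.33.

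The chamber difference was tested as left minus right averaged over sham and shunt, a contrast of group means in a limma model fitted to all probe sets, with Benjamini-Hochberg adjustment over all 31042. With equal groups the estimate of this average is independent of the estimates of the shunt contrasts that picked some of the genes. Its test shares their residual variance, and the genes were chosen with earlier results of these data known. The p-values of the 9 genes are therefore not free of that choice. The atria differed broadly: 50.2% of all probe sets passed, against 10 of the 15 described here, and 52.8% of all genes passed, against 5 of 9, so a pass in itself is common here. Pi16 was 2.81 ± 0.15 (SE) higher in the left, which is 7.01-fold, with an adjusted p of 4.91e-08 and 6 left pools above 6 right pools. By size this was rank 4 of 14217 genes. The probe set 1380484_at was 2.08 ± 0.18 higher (adjusted p = 1.41e-06).

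Among the other resting genes the chamber difference was small or rested on 1 probe set. Dpt was 0.92 ± 0.07 higher in the left on 1373947_at (adjusted p = 6.39e-07), and on 1371732_at the difference was -0.04 ± 0.05 (adjusted p = 0.576, 95% interval -0.14 to 0.07), so the 2 probe sets disagree. Pdgfra was lower in the left by a small amount, -0.22 ± 0.05 (adjusted p = 0.00408), and with right shunt pool 1 as the only array of its group it did not pass (-0.18, adjusted p = 0.0585). For Tcf21 the difference was -0.16 ± 0.10 (adjusted p = 0.193, interval -0.37 to 0.05).

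Of the activation-linked genes, Meox1 and Cthrc1 differed in opposite directions. Meox1 was lower in the left, with a difference of -0.76 ± 0.15 (adjusted p = 0.00107), and Cthrc1 was higher, with 0.63 ± 0.08 (adjusted p = 3.94e-05). For Thy1 on 1369652_at the difference was -0.16 ± 0.09 (adjusted p = 0.139, interval -0.34 to 0.03). On 1369651_at Thy1 was 0.39 ± 0.13 higher in the left (adjusted p = 0.026), a call lost without right shunt replicate 2 (0.29), right sham replicate 1 (0.30), or left sham replicates 1 (0.34) or 2 (0.38), and with right shunt pool 1 as the only array of its group (0.22).

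Fibin did not pass on either probe set, with 0.37 ± 0.15 on 1373727_at (adjusted p = 0.06, interval 0.04 to 0.70) and -0.34 ± 0.14 on 1393696_at (adjusted p = 0.0647, interval -0.65 to -0.03). Each passed without left shunt replicate 3 (0.53 and -0.18). The first also passed without left sham replicate 2 (0.45) and with array weights (0.45, adjusted p = 0.00592), and the other without left shunt replicate 1 (-0.46). The sign of each probe set was the same in every alternative that kept the probe sets apart.

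Pdgfrb was 0.57 ± 0.10 higher in the left on its brightest probe set (adjusted p = 0.000316) and 0.23 ± 0.06 higher on 1391394_s_at (adjusted p = 0.00869), but 0.34 ± 0.11 in the other direction on 1379211_at (adjusted p = 0.0234). With right shunt pool 1 as the only array of its group, 1391394_s_at did not pass (0.21). The call of 1379211_at was lost without right shunt replicate 1 (-0.31), right sham replicate 1 (-0.31), left shunt replicates 1 (-0.31) or 2 (-0.26) or left sham replicate 3 (-0.29), and with right shunt pool 1 alone (-0.38). Over the 15 probe sets, 5 had every left pool above every right pool, where 13.9% of all probe sets did, and 1, that of Pdgfra, had every left pool below, where 11.6% did. Pi16, Meox1, Cthrc1, the Pdgfrb probe set 1370642_s_at and the Dpt probe set 1373947_at passed in every alternative analysis of this average (20 or 21 per probe set), in which Pi16 ran from 2.45 to 2.97.

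**Figure D2:**
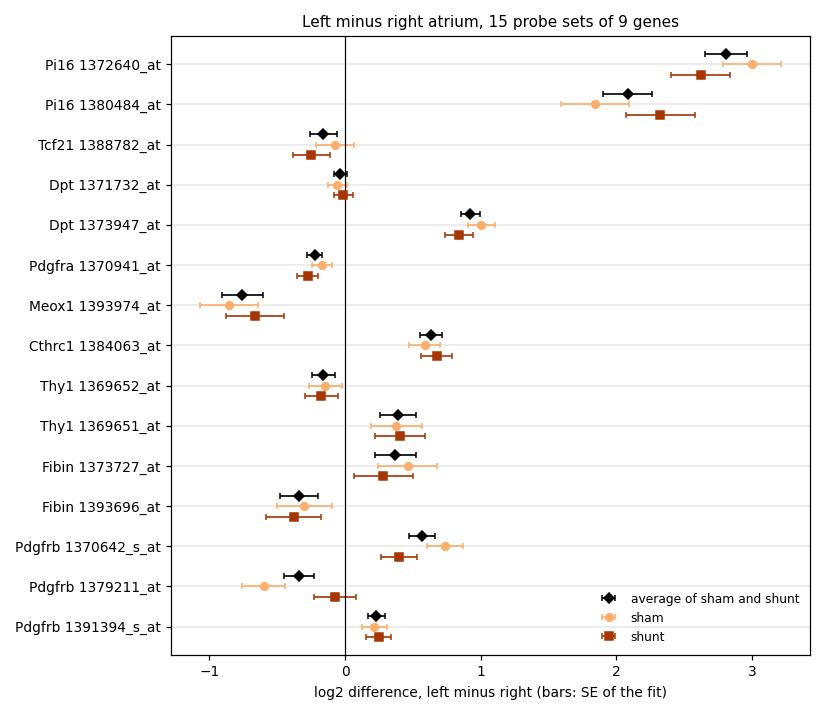
Left minus right log2 difference (horizontal axis) of the 15 probe sets, averaged over sham and shunt (diamonds), in sham (circles) and after shunt (squares), with bars of the SE of the fit. Both Pi16 probe sets lie far to the right, Meox1 and Pdgfra lie below 0, and the probe sets of Fibin and of Pdgfrb fall on both sides of 0.

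The same chamber comparison was read within each operation, where it shares arrays with the shunt contrasts. In sham rats 7 of 15 probe sets passed (36.1% of all) and 4 of 9 genes (37.6% of all), with Pi16 3.0 ± 0.22 higher in the left (adjusted p = 1.31e-06), Meox1 lower by -0.85 ± 0.21 (adjusted p = 0.00735), Cthrc1 0.59 ± 0.12 higher (adjusted p = 0.00167) and Pdgfrb 0.74 ± 0.14 higher (adjusted p = 0.00104). As the mean of its 3 probe sets Pdgfrb was 0.12 and did not pass. After the shunt 8 of 15 probe sets passed (37.7% of all) and 5 of 9 genes (40.5% of all), with Pi16 2.62 ± 0.22 higher (adjusted p = 5.99e-06), Cthrc1 0.67 ± 0.12 higher (adjusted p = 0.00075) and Meox1 at -0.66 ± 0.21 (adjusted p = 0.0271). The chamber order of these genes was therefore the same under both operations.

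The calls after shunt depended more on single arrays than those in sham. Meox1 did not pass without right shunt replicates 1 (-0.59) or 2 (-0.61) or left shunt replicate 3 (-0.34). Fitted with only the groups compared, Meox1 (-0.66), Pdgfra (-0.28) and the Pdgfrb probe set 1370642_s_at (0.40) did not pass. That Pdgfrb probe set was also lost without right shunt replicates 1 (0.44), 2 (0.39) or 3 (0.36) or left shunt replicates 1 (0.32) or 2 (0.28). Pdgfra was lost without right shunt replicate 2 (-0.23). With right shunt pool 1 as the only array of its group, Cthrc1 was 0.48 and Meox1 -0.81. Pi16 and the Dpt probe set 1373947_at passed in every alternative.

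The shunt comparison of the right atrium was used in the choice of genes, so the values are descriptive. Meox1 lay 1.23 ± 0.21 (SE) above sham, Pi16 1.01 ± 0.22, Fibin 0.99 ± 0.22 on 1373727_at and 1.26 ± 0.20 on 1393696_at, Pdgfrb 0.82 ± 0.14 on 1370642_s_at and Thy1 0.63 ± 0.12 on 1369652_at. These 6 of 15 probe sets were past the threshold of the fit, where 2.97% of all probe sets were, and so were 5 of 9 genes, where 3.97% of all genes were. Cthrc1 lay 0.30 ± 0.12 above sham and the Dpt probe set 1373947_at 0.30 ± 0.10. Tcf21 (0.02 ± 0.14), the brighter Dpt probe set (0.06 ± 0.07) and Pdgfra (-0.0050 ± 0.08) lay within their error of the sham level. Pi16 was the only resting gene past the threshold, and its other probe set lay at -0.04 ± 0.25. The other Pdgfrb probe sets lay at -0.06 ± 0.16 (1379211_at) and 0.09 ± 0.09 (1391394_s_at), and the other Thy1 probe set at 0.45 ± 0.19.

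The ventricular markers were uneven over the right shunt pools. Myl2, the ventricular regulatory light chain, lay at 11.45, 12.83 and 12.82 on pools 1, 2 and 3 and at 10.90 to 11.00 in right sham, and the ventricular homeobox gene Irx4 read 4.18, 5.86 and 5.94 there and 4.26 to 4.44 in right sham. With pool 1 as the only right shunt array the differences were 1.37 for Meox1, 1.22 for Pi16, 1.08 and 1.36 for Fibin, 0.90 for Pdgfrb, 0.72 for Thy1 and 0.50 for Cthrc1. Each of these was larger than with the 3 pools. Pool 1 had the highest value of the right shunt group in 11 of the 15 probe sets, where 34.0% of all probe sets had theirs there.

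In the left atrium, also used in the choice, Meox1 lay 1.42 ± 0.21 above sham, Fibin 0.81 ± 0.22 on 1373727_at and 1.19 ± 0.20 on 1393696_at, Pi16 0.63 ± 0.22, Thy1 0.60 ± 0.12, Pdgfrb 0.48 ± 0.14 and Cthrc1 0.39 ± 0.12. Past the threshold were 3 of 15 probe sets, of Meox1, Thy1 and Fibin (1393696_at), where 0.751% of all were, and so were 2 of 9 genes, where 0.935% of all were. Tcf21 (-0.15 ± 0.14), Pdgfra (-0.11 ± 0.08) and the Dpt probe sets (0.11 ± 0.07 and 0.14 ± 0.10) lay near sham. The Pdgfrb value is that of 1370642_s_at, and its other probe sets lay at 0.47 ± 0.16 (1379211_at) and 0.12 ± 0.09 (1391394_s_at). The other probe set of Pi16 lay at 0.44 ± 0.25 and that of Thy1 at 0.48 ± 0.19. Left shunt replicate 3 was below both other pools of its group in 13 of 15 probe sets, where 37.2% of all probe sets were. Without left shunt replicate 3 the differences were 1.74 for Meox1, 1.12 and 1.51 for Fibin, 0.96 for Pi16, 0.71 for Thy1, 0.67 for Pdgfrb, 0.46 for Cthrc1, 0.24 for the Dpt probe set 1373947_at and 0.06 for Tcf21.

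Right and left comparisons share no array, and the difference between the atria in the shunt effect was past the threshold for 0 of 15 probe sets, where 0.0258% of all were, and for 0 of 9 genes, where 0.0281% of all were. On the brightest probe sets it was 0.19 ± 0.30 for Meox1, -0.38 ± 0.30 for Pi16, -0.03 ± 0.17 for Thy1 and -0.34 ± 0.19 for Pdgfrb. The errors were as wide as many of the differences. The other probe sets had 0.48 ± 0.36 for Pi16, 0.03 ± 0.27 for Thy1, and 0.53 ± 0.22 (1379211_at) and 0.03 ± 0.13 (1391394_s_at) for Pdgfrb. Shunt and sham pools did not overlap, with shunt higher, for 7 of 15 probe sets in the right atrium (14.9% of all) and 7 of 15 in the left (7.69% of all).

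**Figure D3:**
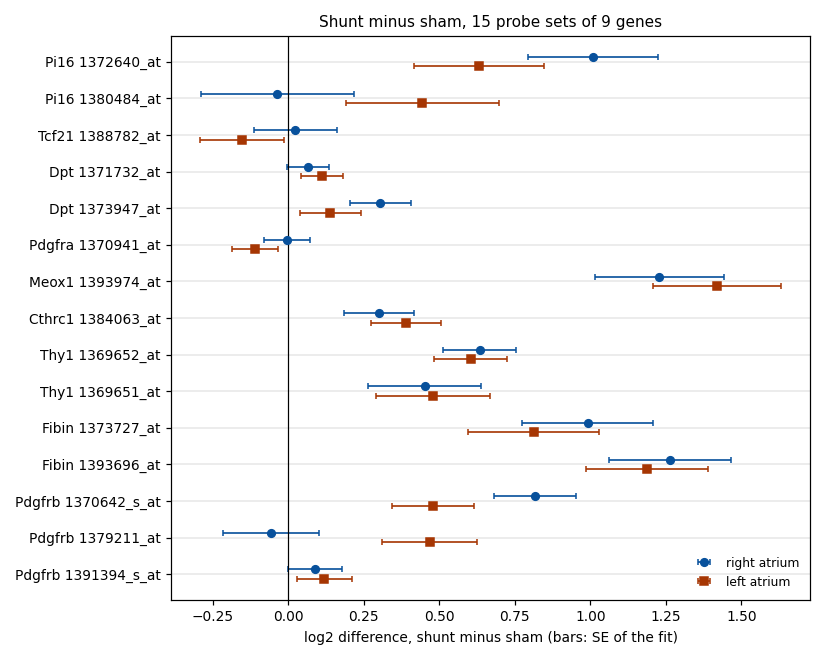
Shunt minus sham log2 difference (horizontal axis) with bars of the SE of the fit for the 15 probe sets in the right (circles) and the left atrium (squares), as a description because some genes were picked by it. Meox1 and the Fibin probe set 1393696_at lie highest in both atria, and Tcf21, Pdgfra and the brighter Dpt probe set lie near 0.

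To set the resting against the activation-linked genes, each gene was centred on its mean over the 12 arrays and the mean of the 4 resting genes was taken from the mean of the 4 activation-linked genes. This balance was 0.03 ± 0.05 (SD, n = 3) in right sham, 0.55 ± 0.10 in right shunt, -0.63 ± 0.10 in left sham and 0.06 ± 0.13 in left shunt pools. Shunt pools lay above the sham pools of their atrium, by 0.52 in the right and 0.69 in the left, and left shunt reached the level of right sham. The activation-linked mean lay 0.79 higher after shunt in the right and 0.81 in the left, and the resting mean 0.27 and 0.12 higher. In the right, Pi16 on 1372640_at (1.01) made nearly all of the resting difference, beside Tcf21 (0.02), Dpt (0.06) and Pdgfra (-0.0050). In left shunt pool 3 the activation-linked mean was 0.01 and the resting mean 0.06, against 0.67 and 0.56 and against 0.48 and 0.54 in pools 1 and 2. Both means were thus lower there while the balance, -0.05, stayed close to the 0.19 and 0.02 of the other pools. The balance has no test, since its genes were chosen, and its chamber difference contains the Pi16 difference given above.

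**Figure D4:**
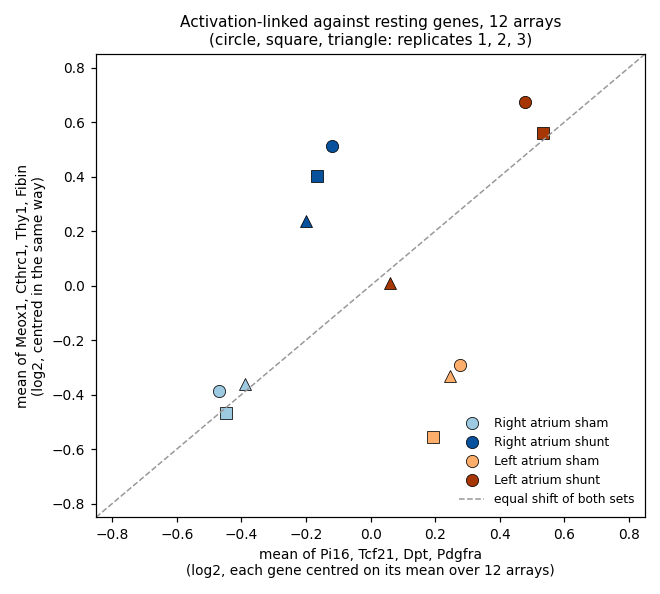
Mean of the 4 activation-linked genes (vertical axis) against the mean of the 4 resting genes (horizontal axis), in log2 units with each gene centred on its mean over the 12 arrays, for each pool. The dashed line marks an equal shift of both means. Right shunt pools lie above the line, left sham pools below it, right sham and left shunt pools near it, and left shunt pool 3 (triangle) is lower than the other left shunt pools on both axes.

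Genes that accompany these states in other tissues were read from lists that hold none of the 9 genes. These lists were chosen with earlier results of these data known. Their calls after shunt are therefore no independent support for the 9 genes. Of 14 measured companions of the resting state, 8 were higher in the left atrium in the averaged comparison, 3 were lower and 3 did not pass, with a median difference of 0.48 where the median of all genes was 0.04 and 52.8% of all genes passed. The highest were Cd248 (endosialin, 1.30 ± 0.10, adjusted p = 7.09e-07) and Entpd2, an ectonucleotidase (1.12 ± 0.05, adjusted p = 2.6e-08), with Scara5, a ferritin receptor (0.69 ± 0.07, adjusted p = 9.03e-06), and the collagen Col15a1 (0.67 ± 0.06, adjusted p = 3.6e-06). Dcn (-0.32 ± 0.07, adjusted p = 0.00133) was lower. In sham 7 of the 14 were higher in the left and 2 lower, with a median of 0.58, where 37.6% of all genes passed. After shunt 7 were higher and 2 lower, with a median of 0.27, where 40.5% of all genes passed. The lower ones were Dcn and Mfap5 in both. The left excess seen for Pi16 was thus shared by some companions and not by others, and the median excess of the companions was smaller after shunt.

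Of 20 activated-state companions, 9 were higher in the left, 5 lower and 6 did not pass, with a median of 0.25 and the same 52.8% of all genes passing. Col1a1 (0.96 ± 0.08, adjusted p = 1.01e-06) and Tagln, an actin-binding protein (0.88 ± 0.07, adjusted p = 4.7e-07), were higher. Lox, the collagen cross-linking enzyme (-1.34 ± 0.10, adjusted p = 5.8e-07), was lower. Members therefore lay on both sides, as Cthrc1 and Meox1 did.

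In the right atrium 4 of 20 activated companions rose after shunt and none of the 20 fell, with a median of 0.38 against 0.02 for all genes: Ccn2 (0.98 ± 0.13, adjusted p = 0.00427), Postn, the matrix protein periostin (1.48 ± 0.21, adjusted p = 0.00496), Ltbp2, a latent TGF-beta binding protein (1.20 ± 0.19, adjusted p = 0.00768), and the collagen Col8a1 (1.99 ± 0.37, adjusted p = 0.018). In that comparison 3.97% of all genes were past the threshold. Col8a1 did not pass without right shunt replicates 1 (1.86) or 2 (1.97) or right sham replicates 1 (1.90) or 2 (1.89). With right shunt pool 1 as the only array of its group, Postn (1.61), Ltbp2 (1.5) and Col8a1 (2.25) were past the threshold no longer, with larger differences. Of 14 resting companions Cd248 (0.98 ± 0.14, adjusted p = 0.00626) and Pdgfrl (0.49 ± 0.11, adjusted p = 0.0331) rose. Pdgfrl did not pass without any 1 of the 6 right atrial arrays (0.40 to 0.55), and with right shunt pool 1 alone neither did (0.93 for Cd248).

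In the left atrium 3 of 20 activated companions rose: Ltbp2 (1.48 ± 0.19, adjusted p = 0.00359), Ccn2 (0.92 ± 0.13, adjusted p = 0.00742) and Thbs4, a thrombospondin (2.81 ± 0.43, adjusted p = 0.011). In that comparison 0.935% of all genes were past the threshold. None of the 3 companions passed when only the left arrays were fitted, and Thbs4 did not without left sham replicates 2 (2.76) or 3 (2.70). Without left shunt replicate 3 the differences were 1.65 for Ltbp2, 0.96 for Ccn2 and 3.3 for Thbs4. Of the 14 resting companions 0 passed, and their median was -0.10 against -0.01 for all genes.

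**Figure D5:**
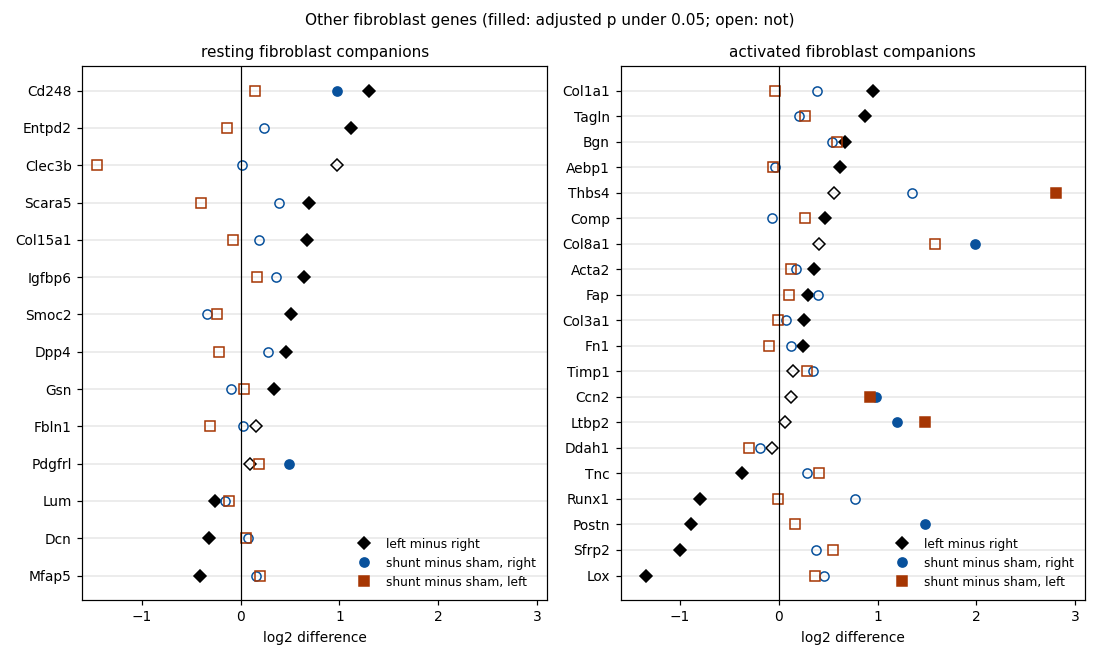
Log2 difference (horizontal axis) of each companion gene of the resting (left panel) and activated state (right panel): averaged left minus right (diamonds) and shunt minus sham in the right (circles) and left atrium (squares), filled where the adjusted p is under 0.05. Cd248 and Entpd2 lie farthest to the left-atrial side among resting companions, and the activated companions that passed after shunt all lie above 0.

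The ligands and partners of the receptors were read next. Of 3 measured PDGF ligands, Pdgfa (0.56 ± 0.06, adjusted p = 8.98e-06) and Pdgfc (0.24 ± 0.07, adjusted p = 0.0148) were higher in the left, and none of the 3 passed after shunt in either atrium. Of 7 partners that bind Thy1, the integrin Itgb3 (-0.92 ± 0.07, adjusted p = 6.88e-07) was lower in the left and the syndecan Sdc4 (0.72 ± 0.06, adjusted p = 9.55e-07) higher, and none of the 7 passed after shunt. In all, 2 of these partners were higher, 2 lower and 3 did not pass, so 4 of 7 passed where 52.8% of all genes did. Past the threshold after shunt were 3.97% of all genes in the right and 0.935% in the left. With shares this low, the absence of calls among 3 ligands and 7 partners is not particular to them. Pdgfc did not pass with right shunt pool 1 as the only array of its group (0.21).

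Of 8 mesenchymal transcription factors, 2 were higher in the left, 3 lower and 3 did not pass, against 52.8% of all genes that passed. Gata4, a cardiac zinc finger factor, was 0.62 ± 0.08 higher (adjusted p = 2.58e-05) and Nr2f2, an orphan nuclear receptor, 0.34 ± 0.05 higher (adjusted p = 0.000235). The lower factors were Wt1, a zinc finger factor of the epicardium (-0.38 ± 0.09, adjusted p = 0.0035), the helix-loop-helix factor Twist1 (-0.38 ± 0.10, adjusted p = 0.00838) and the homeobox factor Prrx1 (-0.25 ± 0.10, adjusted p = 0.0479). As means of their probe sets, Wt1 (-0.10) and Prrx1 (-0.12) did not pass and Twist1 turned to 0.069. Prrx1 also did not pass without 9 of the 12 single arrays (-0.32 to -0.17 over all 12). Of 9 TGF-beta signalling genes, 4 were higher in the left and 3 lower, against the same 52.8% of all genes. Among them were Tgfb1, the ligand (0.73 ± 0.09, adjusted p = 3.54e-05), and Skil, an inhibitor of Smad signalling (-0.67 ± 0.08, adjusted p = 1.64e-05). After shunt 0 of the 8 factors passed in either atrium. Of the signalling genes Tgfb1 rose in the right (0.55 ± 0.13, adjusted p = 0.0431) and 0 passed in the left. Of all genes, 3.97% were past the threshold in the right and 0.935% in the left. The Tgfb1 rise was lost without any 1 of the 6 right arrays (0.45 to 0.64), without left shunt replicate 2 or any left sham replicate (0.55 in each case, with adjusted p from 0.0513 to 0.0597), and with right shunt pool 1 alone (0.50).

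Markers of other cells that carry some of these genes were read beside them. Thy1 is carried by neurons and, in some species, by T cells. The mean level of 7 T cell markers ran from 4.67 to 4.97 over all arrays, below the median of all values. In each group 5 or 6 of the 7 lay below that median, and none passed after shunt. The defining marker Cd3e lay between 3.99 and 4.81. Of 8 neuronal markers 6 or 7 lay below the median in each group. Their mean was 4.06 to 4.17 outside left shunt pools and 4.25, 4.44 and 4.90 in those. The part of T cells and neurons in the Thy1 values was not tested. Prph, a neuronal intermediate filament, rose by 0.67 ± 0.11 after shunt in the right (adjusted p = 0.0089) and by 0.97 ± 0.11 in the left (adjusted p = 0.00174), and Uchl1 by 0.72 ± 0.14 in the left (adjusted p = 0.0403). Uchl1 did not pass without any 1 of the 12 arrays (0.65 to 0.82) except left shunt replicates 1 and 3. Without left shunt replicate 3 the left differences were 0.95 for Prph and 0.53 for Uchl1. Of all genes, 3.97% were past the threshold after shunt in the right and 0.935% in the left.

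Pdgfrb is a gene of smooth muscle and pericytes as well. Of 5 smooth muscle markers, 3 were higher in the left in the averaged comparison and 0 lower, where 52.8% of all genes passed. The median of the 5 was 0.24. The higher ones were Smtn, smoothelin (0.96 ± 0.06, adjusted p = 1.69e-07), the myosin heavy chain Myh11 (0.48 ± 0.05, adjusted p = 1.3e-05) and the kinase Mylk (0.24 ± 0.05, adjusted p = 0.00153). The mean of the 5 was 6.98 to 7.15 in right sham, 7.06 to 7.12 in right shunt, 7.40 to 7.45 in left sham and 7.37 to 7.41 in left shunt pools, and 0 of 5 passed after shunt in either atrium. The mean of 6 mural cell markers was 7.65 to 7.79 in right sham, 7.94 to 8.04 in right shunt, 7.72 to 7.86 in left sham and 8.14, 8.03 and 7.69 in left shunt pools. After shunt 3 of 6 passed in the right atrium, led by Mcam (0.63 ± 0.13, adjusted p = 0.0254), with a median of 0.39, and in the left 0 of 6. Of all genes, 3.97% were past the threshold in the right and 0.935% in the left. Cspg4 (0.33) and Kcnj8 (0.44), the others that passed, were lost without any 1 of the 6 right arrays and without any left sham replicate, and Cspg4 also without left shunt replicate 2. Mcam did not pass without right shunt replicates 1 (0.59), 2 (0.67) or 3 (0.64), right sham replicates 1 (0.62) or 2 (0.56), or with right shunt pool 1 alone (0.72). The part of smooth muscle and mural cells in the Pdgfrb values was not tested.

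Of 6 macrophage markers, 2 rose after shunt in the right (Lyz2, 0.68, and Mrc1, 0.59) and 0 fell, where 3.97% of all genes were past the threshold. In the left 0 of 6 were past it, where 0.935% of all genes were. The mean of the 6 was 7.21 to 7.32 in right sham and 7.70 to 7.82 in right shunt pools. In the left it was 6.94 to 7.09 in sham and 7.35, 7.32 and 6.74 after shunt. Neither Lyz2 (0.60 to 0.74) nor Mrc1 (0.52 to 0.65) passed without any 1 of the 6 right arrays, and Mrc1 did not without left sham replicates 2 or 3 (0.59). Of 4 mesothelial markers, of the epicardial lining, 3 were higher in the left in the averaged comparison, where 52.8% of all genes passed. Msln was 1.31 ± 0.12 higher (adjusted p = 2.33e-06). The mean of the 4 was 7.31 to 7.52 in left sham and 6.72 to 7.23 in left shunt against 6.18 to 6.74 in the right pools. After shunt 1 of the 4, the keratin Krt19, fell in the right (-0.88 ± 0.15, adjusted p = 0.0136), from a mean of 6.86 to 5.98, and 0 passed in the left. The Krt19 call was lost without right shunt replicate 2 (-0.85) or right sham replicate 2 (-0.82) and with right shunt pool 1 alone (-0.59). Ventricular markers went the other way, with 5 of 5 lower in the left, against the same 52.8% of all genes, and a median of -1.51. The part of these cells in the chamber differences of Pi16, Cthrc1 and Meox1 was not tested. Of 6 adipocyte markers, 5 lay below the median of all values in each group except left shunt, where 3 did, and their mean was 5.79 on left shunt pool 3 against 4.41 and 4.95.

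The genes whose levels ran most like Pi16, Meox1 and Thy1 were taken from 14208 other genes by Pearson's r over the 12 arrays. The arrays share their chamber and operation groups, so r describes the pattern over the groups and carries no p. For Pi16 they were Mfap4, a microfibril protein (r = 0.992), Arpc1b (0.988), Sod3, the extracellular superoxide dismutase (0.987), Shmt2 (0.984) and the collagen chain Col6a2 (0.983). Mfap4 had group means of 9.15 in right sham, 9.81 in right shunt, 10.96 in left sham and 11.39 in left shunt pools, the same order as Pi16.

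For Meox1 the nearest genes were LOC102553868 (r = 0.973), S100a4 (0.971), a calcium-binding protein of motile cells, Plod2, a collagen lysyl hydroxylase (0.963), the chemokine receptor Cxcr4 (0.959) and Rab31 (0.959). S100a4 averaged 8.84 in right sham, 9.25 in right shunt, 8.50 in left sham and 9.10 in left shunt pools. For Thy1 they were Alpl, tissue non-specific alkaline phosphatase (0.986), Selenom (0.952), Epb41l2 (0.942), Ptprb (0.936) and Ccdc3 (0.934). Alpl averaged 7.23, 7.95, 7.11 and 7.77 in the same order of groups.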

How the data were processed

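Per the submitters' processing notes, the authors made the deposited values, which are on a log2 scale with 1 value per probe set and array, with RMA, which subtracts background, quantile-normalizes arrays and summarises probes. The version of RMA is not given in the sources used here, nor are the scanner and a genome build. A shift shared by most transcripts cannot be seen after quantile normalization, and bright values (up to 14.43) are compressed.

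Groups and replicate numbers came from the sample titles. Of 31099 probe sets, 57 controls were left out and 31042 were used as deposited, with no filter. The supplied annotation named 1 gene for 20826, several for 436 and none for 9780, and the probe set with the highest mean stood for a gene. All 12 arrays entered a single limma 3.58.1 fit of group means in R 4.3.3 (functions lmFit, contrasts.fit, eBayes), two-sided, with Benjamini-Hochberg adjustment over all probe sets and a threshold of 0.05; it was tested on simulated data. Log2 differences carry the SE of the fit, and intervals are at 95%.

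Genes named were all probe sets of the 9 genes, up to 4 list members with the smallest p per comparison (or fewer), and the 5 genes most like Pi16, Meox1 and Thy1. Lum, Gsn, Cd3e, Ucp1, Irx4 and Myl2 are listed cell markers named for their levels, and Dcn and Mfap5 among the companions, Prrx1 and the pools singled out were named after their values were seen. The members and lists were chosen with earlier results of these data known. Listed genes with no probe set of their own (such as Cd34, Cilp, Pdgfb, Tbx20 and Tgfbr2) were not analysed here. The alternatives were quantile normalization again, subtraction of array medians, the replicate block, the replicate block within an operation (added after seeing the data), array weights, trend and robust options, only the groups compared, the mean of a gene's probe sets, each array left out, and right shunt pool 1 as the only array of its group. A further alternative left out dim probe sets, whose highest group mean lay below the median of all values. Thy1 1369651_at (highest group mean 5.27) was not assessed there.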

Additional observations from a re-analysis of the deposited data

Results flagged for a closer look

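In 3 listed genes every shunt pool lay on one side of the sham pools in the right atrium and on the opposite side in the left. Scara5, a resting companion, was 0.39 higher in the right and -0.40 in the left, a left minus right difference of -0.79 ± 0.15 (limma, adjusted p = 0.119). Nefl, a neurofilament gene on the neuronal list, was -0.23 in the right and 0.50 in the left, a difference of 0.73 ± 0.32 (adjusted p = 0.328). The Nefl value of the left rests on left shunt pool 3: the left shunt pools read 3.17, 3.24 and 4.35 against 3.02 to 3.13 in left sham, and without pool 3 the left difference was 0.12 and the difference between the atria 0.34. Tie1, an endothelial receptor, was 0.20 in the right and -0.14 in the left, a difference of -0.35 ± 0.11 (adjusted p = 0.2). Without left shunt pool 3 the left values of Scara5 and Tie1 were -0.38 and -0.13. The test of the difference did not pass for any of the 3. The search covered every probe set of the fibroblast state genes and 1 probe set of each measured listed gene. The share of all probe sets with such opposite sides was not counted, so the number found is no result in itself. Shunt pools all above sham pools were seen in 14.9% of all probe sets in the right and 7.69% in the left.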

How the results depend on the processing

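Of the 9 genes, 5 passed in the averaged left minus right comparison, 4 in sham and 5 after shunt, and 5 were past the threshold in the right and 2 in the left shunt comparison, with 0 for the difference of the shunt effects. The labels do not say that replicate numbers pair pools. Deviations of same-numbered right and left pools of 1 operation correlated by 0.0789 to 0.148 (6 pairs, 3 of them over 0.1). Those of different-numbered ones correlated by -0.0886 to -0.0116 (12 pairs), so within 1 operation every pool correlated best with its own number. Between operations, same-numbered pools had -0.10 to 0.07, and different-numbered ones reached 0.131 (right sham 2 and left shunt 3). The 3 deviations of a group sum to 0, so these correlations depend on each other. The pairing is a hint from the data, not the design. With the replicate number within an operation as a block, chosen after seeing the data, the counts of genes were 6 averaged, 5 in sham and 5 after shunt, with Pi16 at 2.81 (adjusted p = 1.6e-06), and the difference of the shunt effects had 3 of all probe sets past the threshold in place of 8. Fibin passed in the average with that block (adjusted p = 0.0219 on 1373727_at and 0.0187 on 1393696_at) and with the plain replicate block (0.0427 and 0.0461), and Pdgfrb 1391394_s_at after shunt did not pass with the former (0.25, adjusted p = 0.081). With the replicate block the left shunt count was 1, with array weights 5, with only the groups compared 0, and as the mean of probe sets 4. After shunt the left minus right count was 2 with only the groups compared, and with right shunt pool 1 as the only array of its group it was 1 and the right shunt count 0. Leaving out 1 array gave counts of 5 to 6 averaged, 4 to 5 in sham, 2 to 5 after shunt, 1 to 5 for the right shunt (1 without right shunt replicates 1 or 2 or right sham replicate 2), 0 to 5 for the left (0 without left sham replicate 2, 5 without left shunt replicate 3) and 0 to 0 for the difference. The balance moved to 0.63 in the right as the mean of probe sets, and ran from 0.47 to 0.57 in the right and 0.62 to 0.74 in the left without single arrays. Signs turned for Dpt, 1371732_at, after shunt with array weights (0.012), without left shunt replicates 1 or 3 (-0.057 to 0.014 over all single arrays left out) and with right shunt pool 1 alone (0.0069). As means of probe sets left minus right was 0.44 averaged, 0.47 in sham and 0.41 after shunt for Dpt, 0.12 in each for Thy1, -0.047 after shunt for Fibin, and in the average 0.069 for Twist1, -0.067 for Cd8a and 0.085 for Myh7. Pdgfrb 1379211_at after shunt ran from -0.29 to 0.083 over single arrays left out, with the 0.083 without left shunt replicate 2. Of the listed genes past the threshold, 54 of 72 stayed past it in every alternative of the averaged comparison, 1 of 19 in the right shunt and 0 of 6 in the left.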
